A study of Mus musculus with 14 samples.

Results

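Translation initiation factors (eIF) and elongation factors (eEF) were followed in mouse oocytes with and without the mitochondrial fission receptor gene Mff. The genes were taken from the deposited count tables by symbol: names beginning with Eif or Eef and a digit, without the eIF2 kinases (Eif2ak), Eif4enif1 and pseudogenes. This gave 63 genes of the 18507 in either table. The table of germinal vesicle (GV) oocytes held all 63, and the table of ovulated oocytes held 61, without Eef1a2 and Eif4a3l1. They comprise the initiation factors themselves, the eIF4E-binding proteins, the elongation factors, and the kinase and methyltransferases that modify elongation factors. The rule on symbols itself used no measured value, but it was set with earlier results of these data known.

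In initiation, eIF2 carries the initiator tRNA to the small ribosomal subunit together with eIF1, eIF1A, eIF3 and eIF5, and the eIF4 proteins bring that complex to the cap of the mRNA. eIF2B recharges eIF2 with GTP between rounds, eIF5B joins the large subunit, and eEF1A and eEF2 then deliver aminoacyl-tRNAs and move the ribosome along. A fully grown oocyte makes little new RNA, so meiotic maturation draws on stored maternal mRNAs, which are translated, kept silent or degraded according to their 3′ ends.

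RNA was measured at 2 stages: GV oocytes, which are arrested in the first meiotic prophase, and oocytes collected after ovulation. WT oocytes came from mice with both Mff alleles floxed (Mff fl/fl) and no Cre, while the CKO oocytes had in addition the Gdf9-Cre transgene, which is active in oocytes. All 4 groups therefore carry the floxed alleles, and no group has unmodified Mff. Each genotype had 4 libraries at the GV stage and 3 after ovulation. No source used here gives the age of the mice or how many oocytes and animals went into a library. The spread behind the p-values is therefore that between these libraries, and it may be technical.

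Library totals were 26575600 to 28847400 estimated counts. Mff was at 304 to 945 CPM, counts scaled to a common library total, in the WT libraries and at 30.1 to 54.4 CPM in the CKO libraries. Summed oocyte markers (13 of 13 genes in the tables, among them Zp3, Gdf9 and Bmp15) were at 20154 to 35529 CPM. Granulosa markers (20 of 21 genes in the tables) summed to 470.5 to 625 CPM in GV libraries, 969.9 to 1248 CPM in ovulated WT and 495 to 895 CPM in ovulated CKO, most of it Serpine2. The defining marker Foxl2 was below 0.05 CPM on average in both GV groups, but other genes of the list were higher. Cyp19a1 had means of 50.9 CPM in GV WT and 44.8 CPM in GV CKO, and Cyp11a1 means of 11.3 and 13.2 CPM. The 100 most abundant genes took 35.2 to 51.1% of the counts in GV libraries and 25.0 to 35.4% in ovulated libraries. On the first principal component, GV WT 2, GV CKO 1 and GV CKO 2 stood apart from the other GV libraries, and ovulated CKO 2 and ovulated WT 3 lay farthest out among the ovulated ones.

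The translation factors together took 0.684 to 0.840% of the counts of a GV library and 0.750 to 0.853% of an ovulated one (plot of summed counts by role). The elongation factors went from 0.110 ± 0.0101% of counts in GV WT (SD, n = 4) to 0.0169 ± 0.000670% in ovulated WT (SD, n = 3). The subunits of eIF3 went from 0.105 ± 0.0127% to 0.0542 ± 0.00260%, while the cap-binding and helicase group went from 0.183 ± 0.0211% to 0.294 ± 0.0227%. In none of these 3 roles did the WT libraries of the stages overlap. These sums are a description, with no test, and long transcripts weigh more in them than short ones.

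**Figure D1:**
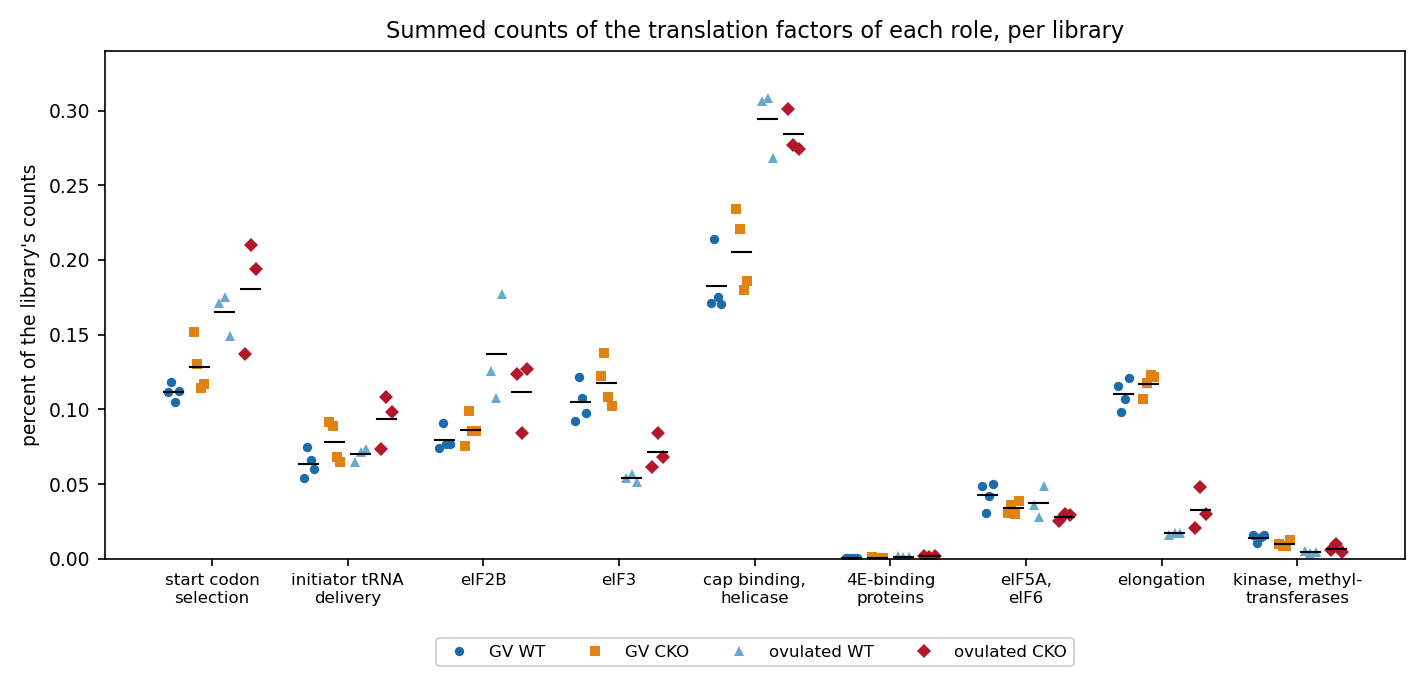
Each point is 1 library; the vertical axis is the percent of that library's estimated counts that fell on the translation factors of a role, and bars are group means. Elongation factors are near 0.11% in GV WT and near 0.017% in ovulated WT, and the cap-binding group is higher in both ovulated groups than in GV WT.

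Levels between genes were compared in FPKM, which is scaled to transcript length. In GV WT oocytes the most abundant translation factors were Eef1a1, the elongation factor that delivers aminoacyl-tRNAs, at 447 ± 78.6 FPKM (SD, n = 4), Eif4e, the cap-binding protein, at 416 ± 60.9 FPKM (SD, n = 4), and Eif1b, a start codon fidelity factor, at 410.2 ± 80.6 FPKM (SD, n = 4). The ranges of these 3 overlapped, so their order is not resolved. Eif2b1, the alpha subunit of eIF2B, followed at 311 ± 44.6 FPKM (SD, n = 4). Levels differed widely within complexes (plot of complex subunits). Among the 5 eIF2B subunits, GV WT means ran from 311 FPKM for Eif2b1 down to 1.37 FPKM for Eif2b5, the catalytic epsilon subunit. Among the 14 eIF3 genes they ran from 228 FPKM for Eif3m to 0.410 FPKM for Eif3j2. The order was different after ovulation, when Eif2b1 led at 758 ± 193 FPKM (SD, n = 3), followed by Eif4e3, an eIF4E relative, at 362 ± 62.9 FPKM (SD, n = 3), Eif1 at 344 ± 74.5 FPKM (SD, n = 3) and Eif5a at 322 ± 98.9 FPKM (SD, n = 3). The ranges of these last 3 overlapped. Eef1a1 then stood at 13.1 ± 2.78 FPKM (SD, n = 3).

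Several members have close paralogs, and the deposited counts may divide reads between them. The coding sequences of Eif3j1 and Eif3j2 are identical at 99.2% of aligned bases, with an identical run of 784 bases, so the values of these genes are uncertain. Eif1a and Eif1ax share 85.5%, Eif1 and Eif1b 81.3%, and Eef1a1 and Eef1a2 80.0%, with no identical run longer than 28 bases in these pairs. Levels often differed within a pair. In GV WT, Eif1ax was at 73.8 ± 2.76 FPKM (SD, n = 4) and Eif1a at 0.807 ± 0.728 FPKM (SD, n = 4). Eif5a, the hypusine-carrying factor, was at 233 ± 35.0 FPKM (SD, n = 4) and Eif5a2 at 0.145 ± 0.0835 FPKM (SD, n = 4). Eif4e was at the level given above and its oocyte-type relative Eif4e1b at 9.16 ± 2.42 FPKM (SD, n = 4). Eef1a2 had 0 counts in all 4 GV WT libraries and 1 count in 1 GV CKO library. The helicases Eif4a1 and Eif4a2 were at 91.8 ± 48.5 FPKM (SD, n = 4) and 73.0 ± 3.28 FPKM (SD, n = 4).

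**Figure D2:**
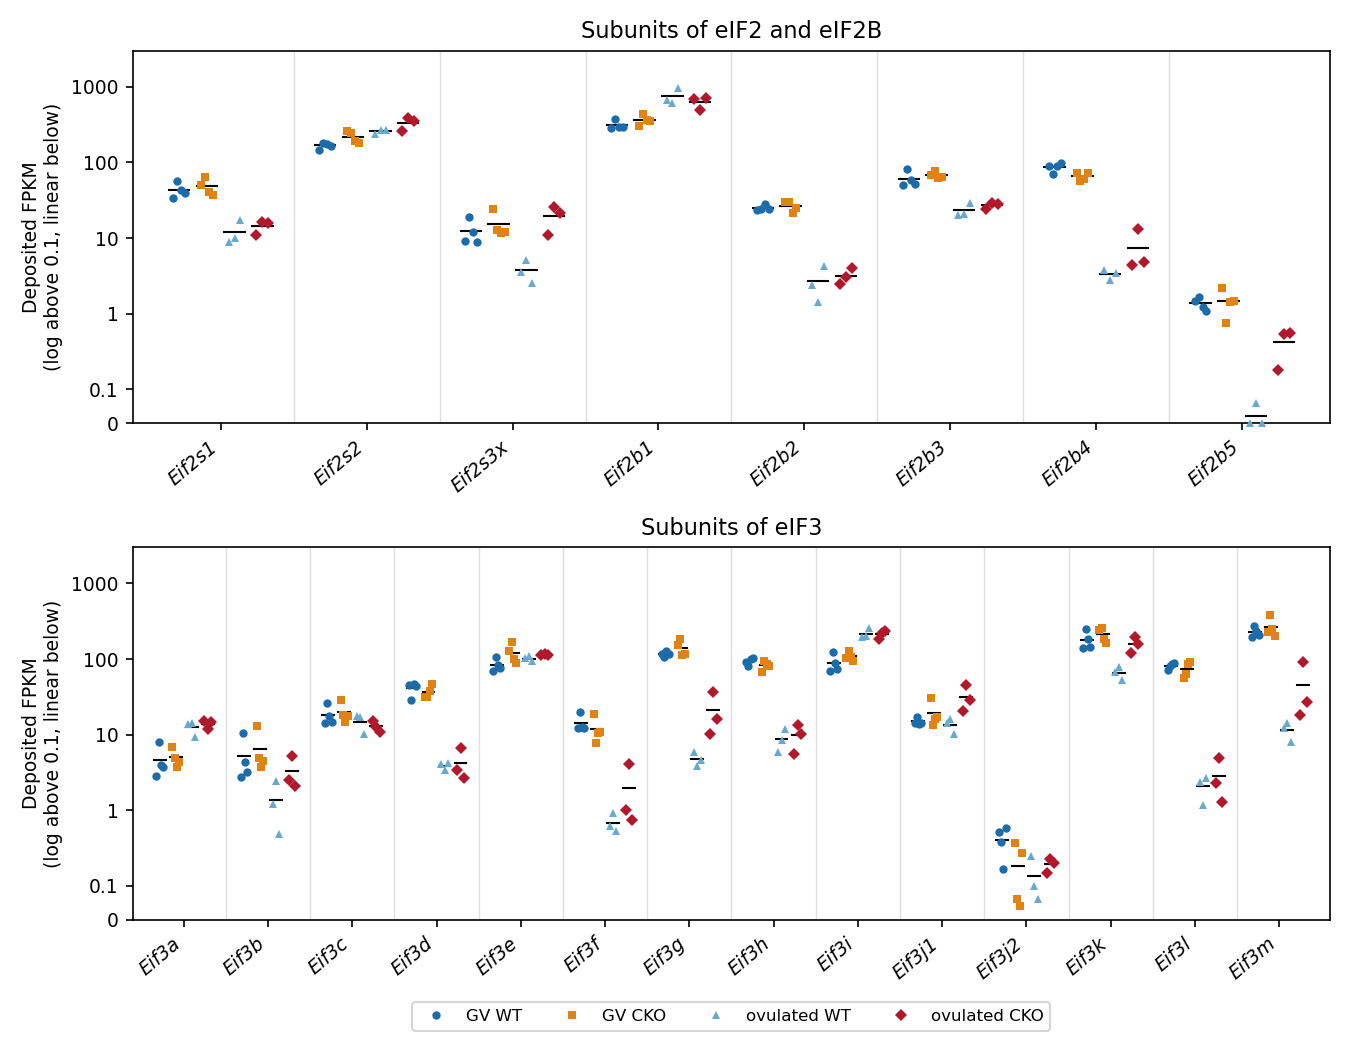
Deposited FPKM of each subunit of eIF2, eIF2B (top) and eIF3 (bottom); each point is 1 library, bars are group means, and the axis is logarithmic above 0.1 and linear below. Eif2b1 and Eif3i are higher in the ovulated groups than in GV WT, while Eif2b2, Eif2b4, Eif3d and Eif3l are lower.

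Loss of Mff was compared first in GV oocytes, and none of the 60 translation factors tested was called between CKO and WT (edgeR quasi-likelihood test, adjusted p under 0.05). Over all genes the test called 0.0163%, which is 2 of 12298. At an unadjusted p under 0.05 there were 4 translation factors, against 6.66% of all genes, and DESeq2 also called 0. Their median log2 fold change was -0.02, and that of all genes tested was 0.03. The smallest p was that of Eef1akmt1, a lysine methyltransferase of eEF1A (CPM of single genes throughout with TMM scaling). It was at 2.44, 5.84, 3.79 and 3.16 CPM in WT and 7.04, 7.47, 6.45 and 5.71 CPM in CKO. Its ranges overlapped, and the log2 fold change was 0.79 (SE 0.28, adjusted p = 0.648). Eif4g1, the main scaffold of the cap complex, and Eif3f, an eIF3 subunit, were the 2 genes whose groups did not overlap, against 4.19% of all genes, and both were lower in CKO, against 1.81%. Eif4g1 was at 12.3, 14.7, 11.7 and 12.2 CPM in WT and 8.35, 6.79, 9.11 and 10.5 CPM in CKO, with a log2 change of -0.56 (SE 0.22, adjusted p = 0.696). In Eif3f the log2 fold change was -0.40 (SE 0.23, adjusted p = 0.763).

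From the GV stage to ovulation in WT, 51 of 60 translation factors tested changed: 38 fell and 13 rose. Over all 13199 genes tested together 66.4% were called, 36.2% lower and 30.3% higher. The median log2 fold change of the translation factors was -1.67, against -0.17 for all genes. With each library's trend with transcript length removed, the split was 28 lower and 17 higher, the median of the translation factors was -0.87 and that of all genes 0.12. In CKO 30 fell and 9 rose (of all genes 54.4% were called, 31.2% lower and 23.2% higher), with a median of -0.84 against -0.19, and with the length trend removed 27 fell and 19 rose. Levels are relative to the rest of each library, so neither cell number nor RNA per cell can be read from them. A rise here and a smaller loss than that of other RNAs cannot be told apart. The differences between the stages in granulosa markers and in the share of the 100 most abundant genes, given above, moved with these changes, and their part was not tested. The first strand in such libraries is usually primed from the poly(A) tail, so less RNA and a shorter tail cannot be told apart here, nor can stage and deposited table.

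**Figure D3:**
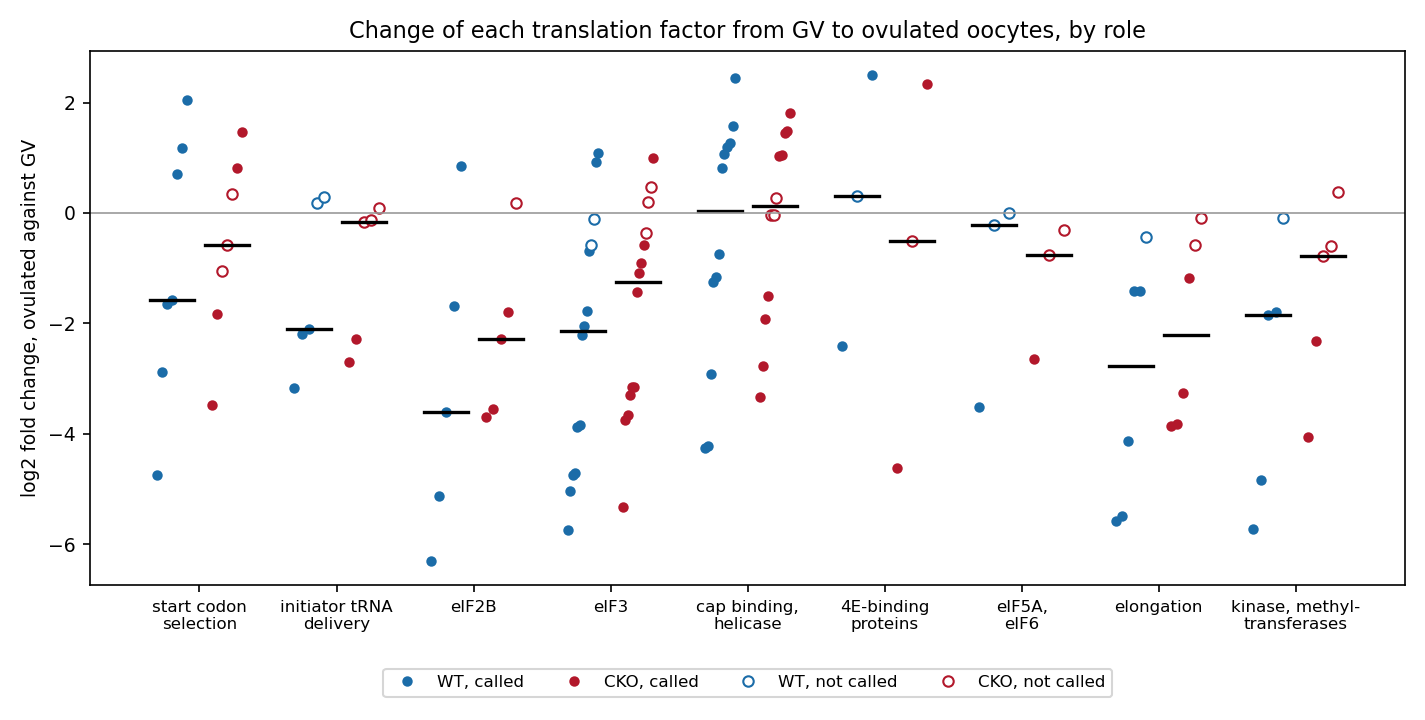
Each point is 1 translation factor; the vertical axis is its log2 fold change from GV to ovulated in WT (blue) and CKO (red), filled where the adjusted p was under 0.05, and bars are medians of a role. Points of the elongation group lie below 0 in both genotypes, and the cap-binding group holds changes in both directions.

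Among the factors of start codon selection 3 rose and 4 fell in WT. Eif5b, the GTPase of subunit joining, was at 76.1, 86.3, 74.6 and 83.6 CPM in GV WT and 357, 396 and 240.0 CPM in ovulated WT, with no overlap, and rose by 2.05 (SE 0.32, adjusted p = 2.69e-05) on the log2 scale. Of its transcript, 21.1% overlaps exons of Rev1 on the opposite strand, and no source used here says whether the counting used strand. The scanning factor Eif1ax moved the other way. It was at 472, 283, 433 and 499.9 CPM in GV WT and 17.7, 16.0 and 13.6 CPM after ovulation, a log2 change of -4.74 (SE 0.39, adjusted p = 3.36e-08). Eif1 and Eif1b, which do the same task, went in opposite directions in WT, at log2 changes of 0.71 (SE 0.29, adjusted p = 0.0381) and -1.66 (SE 0.39, adjusted p = 0.00114). The call of Eif1 was lost without any 1 of GV WT 2, GV WT 3, GV WT 4 or ovulated WT 3. The sign of Eif1b turned when the length trend was removed, to 0.03.

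Of the carriers and chargers of the initiator tRNA, the subunits did not move together. Eif2s1 (alpha subunit of eIF2) and Eif2s3x (gamma) fell in WT, with log2 changes of -2.20 (SE 0.30, adjusted p = 6.15e-06) and -2.10 (SE 0.29, adjusted p = 8e-06), while Eif2s2 (beta) was at 483, 347, 496 and 535 CPM and then 469, 541 and 576 CPM, a log2 change of 0.18 (SE 0.23, adjusted p = 0.492) that did not pass the test. In eIF2B, 4 subunits fell and 1 rose. Eif2b4 (delta) went from 191, 90.0, 164 and 209 CPM to 5.06, 3.90 and 5.09 CPM, a log2 change of -5.12 (SE 0.41, adjusted p = 2.87e-08). Eif2b5 had 98, 103, 78 and 70 counts in the GV WT libraries and 0, 4 and 0 counts in the ovulated WT libraries. Its fitted log2 fold change of -6.31 (SE 0.75, adjusted p = 1.36e-06) rests on those few counts. Eif2b1 was at 721, 558, 631 and 735 CPM in GV WT and 1032, 916 and 1634 CPM in ovulated WT, without overlap, and rose by 0.85 (SE 0.31, adjusted p = 0.0212). That call was lost without ovulated WT 3, its highest library.

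In the eIF3 complex, which scaffolds the scanning ribosome, 10 of 14 genes fell in WT, 2 rose and 2 were not called. Eif3l fell most, from 173, 113, 174 and 209 CPM to 3.42, 1.74 and 4.20 CPM, a log2 change of -5.74 (SE 0.50, adjusted p = 5.82e-08). Eif3m and Eif3g fell too, at -4.70 (SE 0.47, adjusted p = 2.01e-07) and -5.04 (SE 0.41, adjusted p = 2.89e-08). The genes that rose were Eif3a, the largest subunit, by 1.08 (SE 0.24, adjusted p = 0.000652), and Eif3i by 0.93 (SE 0.23, adjusted p = 0.00182). With the length trend removed, Eif3a was not called and Eif3e, uncalled in WT at -0.12 (SE 0.23, adjusted p = 0.661), was called higher, at 1.14. In CKO 10 fell and 1, Eif3a, rose. Eif2b2, Eif3a, Eif3d, Eif3e, Eif3f, Eif3i, Eif4e2, Eif5, Eef1b2, Eef1e1 and Eef2 are outside the rule for named genes and were chosen after their values were seen.

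In the cap-binding and helicase group 6 rose and 6 fell in WT. Eif4g2, a scaffold that lacks the eIF4E-binding region, was at 71.2, 193, 107 and 78.1 CPM in GV WT and 617, 762 and 459 CPM after ovulation, a log2 change of 2.45 (SE 0.39, adjusted p = 2.95e-05). The lowest ovulated library lay above the highest GV library. Eif4g3 rose by 1.58 (SE 0.31, adjusted p = 0.000232) and Eif4g1 by 1.07 (SE 0.30, adjusted p = 0.00486), so that all 3 scaffolds were higher. Without ovulated WT 1, or with the length trend removed, Eif4g1 was not called. The cap-binding proteins diverged. Eif4e3 went from 348, 217, 314 and 349 CPM to 780.3, 809 and 629 CPM, 1.27 (SE 0.24, adjusted p = 0.000153) on the log2 scale, and 14.8% of its transcript overlaps a predicted gene on the same strand. Eif4e went from 926, 746, 845 and 909 CPM to 298, 300.2 and 485 CPM, a log2 change of -1.25 (SE 0.28, adjusted p = 0.000725), which was not called with the length trend removed. Eif4e1b fell in WT, at -0.75 (SE 0.26, adjusted p = 0.0179), and with the length trend removed its sign turned, to 0.18. It was also not called without GV WT 3 or without ovulated WT 2.

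Both helicases of the cap complex rose in WT, Eif4a1 by 1.19 (SE 0.26, adjusted p = 0.000558) and Eif4a2 by 0.81 (SE 0.27, adjusted p = 0.0128). Eif4a3, the exon junction helicase, fell, at -2.92 (SE 0.43, adjusted p = 1.35e-05), as did Eif4h, a helicase cofactor, at -4.26 (SE 0.59, adjusted p = 6.65e-06). Among the eIF4E-binding proteins, which block assembly of the cap complex, Eif4ebp2 had the largest rise of all the translation factors called. It was at 1.19, 3.62, 1.90 and 1.38 CPM in GV WT and 16.6, 11.8 and 6.38 CPM in ovulated WT, without overlap, a log2 change of 2.50 (SE 0.47, adjusted p = 0.000168). Eif4ebp1 was at 1.34, 0.930, 0.948 and 0.713 CPM and 0.497, 0.516 and 2.64 CPM, and was not called. Eif4ebp3 was at 0.348, 1.96, 0.632 and 0.306 CPM in GV WT and 0.124, 0.258 and 0.0712 CPM in ovulated WT, and fell, at -2.41 (SE 0.82, adjusted p = 0.0148). That call was lost without GV WT 2, without ovulated WT 3 and with the length trend removed, and 67.3% of its transcript overlaps a predicted gene on the same strand. Of the ribosome-binding factors, Eif6, which keeps free large subunits from joining, fell, at -3.51 (SE 0.41, adjusted p = 1.22e-06), while Eif5a had a log2 change of 0.00 (SE 0.33, adjusted p = 0.991). With the length trend removed Eif5a was called higher in both genotypes, at 1.39 in WT and, against -0.31 before, at 0.88 in CKO.

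Of 6 elongation factors tested, 5 fell in ovulated WT. Eef1a1 was at 1074, 471, 779 and 1176 CPM in GV WT and 16.6, 22.4 and 15.9 CPM in ovulated WT. The stages were far apart, and the log2 fold change was -5.58 (SE 0.52, adjusted p = 9.95e-08). Eef1d, a subunit of the exchange factor that reloads eEF1A, fell, at -5.49 (SE 0.46, adjusted p = 3.63e-08), and 12.0% of its transcript overlaps Naprt on the same strand. Eef2, the translocase, was less changed, at -1.42 (SE 0.31, adjusted p = 0.000541). Eef1b2, another exchange subunit, was at 67.6, 53.6, 61.4 and 60.2 CPM and 38.2, 43.0 and 53.5 CPM and was not called, with -0.44 (SE 0.24, adjusted p = 0.11). Eef1e1, a component of the tRNA synthetase complex, fell, at -1.42 (SE 0.28, adjusted p = 0.000264), but with the length trend removed its sign turned, to 0.19. Eef1b2 turned too, to 0.49, and was then called higher. Among the modifying enzymes 4 of 5 fell. Eef2k, the kinase that inhibits eEF2, fell, at -1.85 (SE 0.48, adjusted p = 0.00272), and so did Eef1akmt4, a methyltransferase of eEF1A, at -5.73 (SE 0.46, adjusted p = 2.83e-08), with 43.7% of the Eef1akmt4 transcript shared with a predicted gene on the same strand.

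The 3′ ends of these mRNAs were read because stored oocyte mRNAs can carry a cytoplasmic polyadenylation element (CPE), searched as TTTTAT or TTTTAAT, and a poly(A) signal, searched as AATAAA or ATTAAA, both on the transcribed strand within the last 100 bases of the main GENCODE transcript. The search was chosen after the changes were known. Sites of genes that fell (Eef1a1, Eif1ax, Eif4e), of genes that rose (Eif4e3, Eif4a1, Eif5b, Eif4g3) and of Eif2s3x are shown. Each has 28 bases in the 3′ UTR of the GENCODE transcript. The CPE is in capitals where the gene holds one, and otherwise the poly(A) signal.
Eef1a1: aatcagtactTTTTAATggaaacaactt
Eif1ax: ttcagtggatgTTTTATgctgcacaaat
Eif4e: agaggattggaATTAAAtgcgttcacta
Eif4e3: ttttgagaaaaTTTTATttttgaacttt
Eif4a1: acaaaattctgAATAAAattacttggaa
Eif5b: tgatgctcagaAATAAAagtttcaggaa
Eif4g3: tgcaagtttaaAATAAAgacttctcctt
Eif2s3x: gaaaacatttaAATAAAacaagattctg
In GRCm38, the assembly named mm10, the Eef1a1 site lies at chr9:78478507-78478534 on the reverse strand and the Eif1ax site at chrX:159389888-159389915 on the forward strand. The Eif4e site is chr3:138559665-138559692 on the forward strand, and that of Eif4e3 is chr6:99625216-99625243 on the reverse strand. Eif4a1 has its site at chr11:69666943-69666970 on the reverse strand, Eif5b at chr1:38055548-38055575 on the forward strand, Eif4g3 at chr4:138207050-138207077 on the forward strand and Eif2s3x at chrX:94188716-94188743 on the reverse strand.

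A CPE stood in 7 of the 55 translation factors tested whose 3′ UTR has at least 100 bases, 12.7%, against 19.8% of all such genes. Over all genes it was found in 30.1% of those called higher and 10.7% of those called lower in ovulated WT. Among the translation factors it was found in 1 of 12 that rose, Eif4e3, and in 5 of 34 that fell, among them Eef1a1 and Eif1ax. For Eif4e3 and Eif1ax this depends on the GENCODE transcript end. In RefSeq, Eif4e3 on the reverse strand runs on to 99621879, past the site at 99625216. Eif1ax on the forward strand ends there at 159389621, before the site at 159389888. The Eif1ax window held no poly(A) signal. A poly(A) signal was found in 42 of 55 translation factors (76.4%) and in 81.4% of all genes. A match shows only that these letters are in the window. Translation factors that rose had a median transcript length of 4050 bases, and those that fell 1983.5 bases. Across the 60 genes the log2 fold change in WT correlated with transcript length at a Spearman rho of 0.376, and across the 12864 genes with a transcript at 0.382. These are descriptions across genes that share the same libraries.

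After ovulation the loss of Mff was accompanied by higher levels of 10 of 59 translation factors tested and lower levels of 0, which is 16.9%. Over all 12010 genes 7.84% were called, 6.44% higher and 1.4% lower. With the length trend removed the calls were 5 higher and 1 lower, against 6.97% of all genes called. Eif3g, Eif3m, Eif3k, Eef1d and Eef1akmt1 were then no longer called. The share of higher calls over all genes went from 82.2% to 66.4%. The groups did not overlap in 18 genes that were higher and 4 that were lower in CKO, against 15% and 14.1% of all genes. The median log2 fold change was 0.24, against -0.001 for all genes. Of the 10 genes, 9 were no longer called without ovulated WT 3, and the same 9 without ovulated CKO 2. Eif2s3x remained called in both cases. The count was 4 without ovulated WT 1 and 5 without ovulated WT 2, against 4.11% and 4.52% of all genes.

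**Figure D4:**
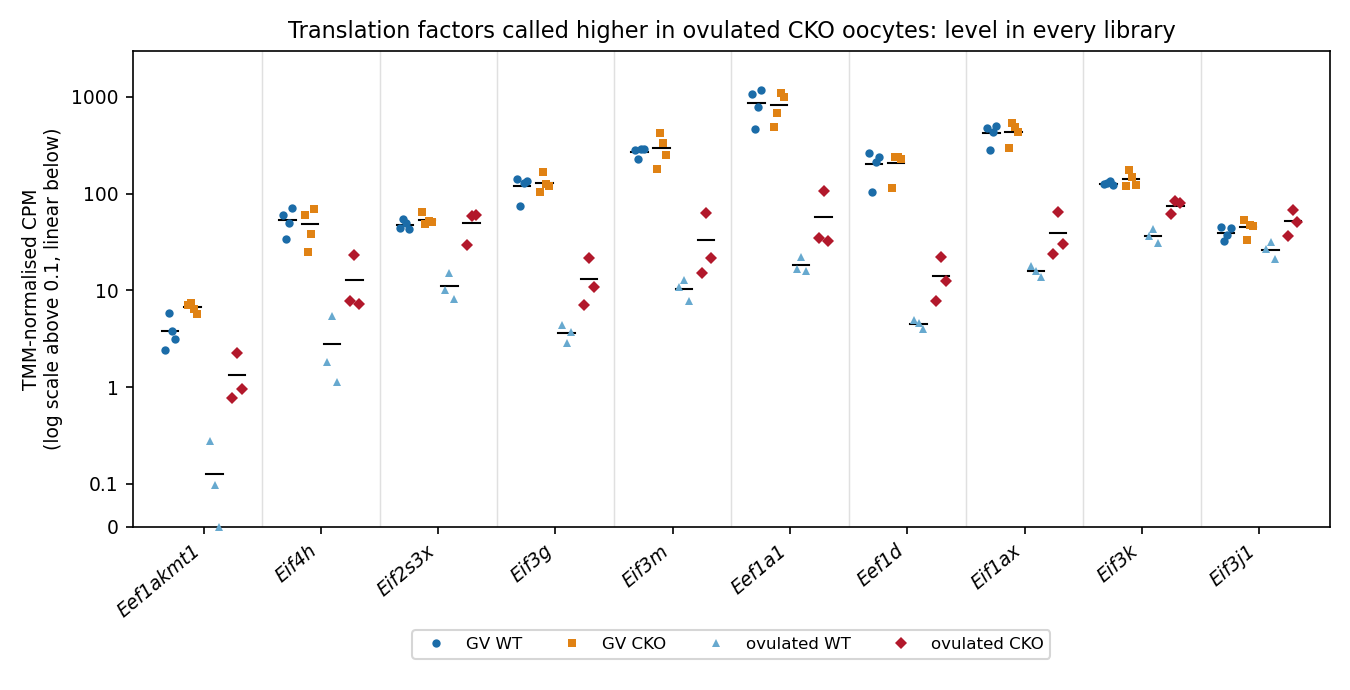
TMM-normalised CPM of the 10 translation factors called higher in ovulated CKO oocytes; each point is 1 library, bars are group means, and the axis is logarithmic above 0.1 and linear below. In all 10 the 3 ovulated CKO libraries lie above the 3 ovulated WT libraries, and in 8 of the 10 genes all ovulated CKO values lie below all GV values.

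Eif2s3x, the X-linked gene of the gamma subunit that holds GTP and the initiator tRNA in eIF2 (chromosome X, 94188709 to 94212651 in GRCm38.p6), had the smallest adjusted p of the 10. It was at 10.2, 15.2 and 8.16 CPM in ovulated WT and 29.7, 59.4 and 59.5 CPM in ovulated CKO. All CKO libraries lay above all WT libraries, and the log2 fold change was 2.19 (SE 0.34, adjusted p = 0.0015). At the GV stage the gene was at 44.6, 54.3, 49.5 and 42.8 CPM in WT and 64.3, 48.5, 51.7 and 50.7 CPM in CKO. Ovulated CKO oocytes thus overlapped the GV range, while ovulated WT oocytes lay below it. The log2 fold change in ovulated oocytes was between 1.87 and 2.45 in 17 alternatives, and it was called in 16 of them. The other eIF2 subunits, Eif2s1 and Eif2s2, had log2 fold changes of 0.01 (SE 0.32, adjusted p = 0.989) and 0.17 (SE 0.24, adjusted p = 0.727).

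Of the eIF3 genes 4 rose, and of these only Eif3j1 was still called with the length trend removed. Eif3g, an RNA-binding subunit, was at 4.35, 2.87 and 3.74 CPM in WT and 7.07, 21.4 and 10.9 CPM in CKO, a log2 change of 1.87 (SE 0.43, adjusted p = 0.0141). Eif3m was at 10.7, 12.7 and 7.69 CPM and 15.0, 62.5 and 21.8 CPM, with 1.71 (SE 0.44, adjusted p = 0.0272). Eif3k, a peripheral subunit, was at 36.5, 43.2 and 30.9 CPM and 61.9, 83.2 and 80.7 CPM, with 1.07 (SE 0.25, adjusted p = 0.0173). In Eif3g and Eif3m the highest value was that of CKO 2, and in Eif3k CKO 2 and CKO 3 were close. Eif3j1, a loosely bound subunit, rose by 1.00 (SE 0.29, adjusted p = 0.0443), with the uncertainty from Eif3j2 given above and 20.5% of its transcript overlapping Spg11 on the opposite strand.

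Eif1ax was at 17.7, 16.0 and 13.6 CPM in WT and 23.6, 64.6 and 29.8 CPM in CKO, and rose by 1.35 (SE 0.35, adjusted p = 0.0292). Eif4h was at 1.80, 5.39 and 1.14 CPM in WT and 7.76, 23.2 and 7.30 CPM in CKO, a log2 change of 2.25 (SE 0.57, adjusted p = 0.0252). The groups did not overlap in either gene, and CKO 2 was the highest library of both. Among elongation factors, Eef1a1 was at 16.6, 22.4 and 15.9 CPM in WT and 34.7, 107 and 32.5 CPM in CKO, and rose by 1.70 (SE 0.40, adjusted p = 0.0171). Eef1d was at 4.97, 4.61 and 3.95 CPM and 7.76, 22.2 and 12.5 CPM, with 1.68 (SE 0.40, adjusted p = 0.0175). Both were highest in CKO 2, and both remained far below their GV levels. Eef1akmt1 had 9, 3 and 0 counts in the WT libraries and 27, 89 and 32 counts in the CKO libraries, so its fitted log2 fold change of 3.38 (SE 0.98, adjusted p = 0.0458) rests on few WT counts.

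The cap-binding proteins were not called. Eif4e was at 298, 300.2 and 485 CPM in ovulated WT and 314, 313 and 450.3 CPM in CKO, a log2 change of 0.02 (SE 0.27, adjusted p = 0.982). The CKO range lay within the WT range. Eif4e3 was at 780.3, 809 and 629 CPM in WT and 534, 395 and 409.7 CPM in CKO, with -0.69 (SE 0.24, adjusted p = 0.0964). Every CKO library lay below every WT library, and the difference did not pass the test. DESeq2 and both fits with a replicate block called it lower, and over 17 alternatives its adjusted p ran from 0.0358 to 0.309. Eif4e2, a cap-binding protein that represses translation, and Eif4e1b lay higher in CKO without overlap, at 1.15 (SE 0.48, adjusted p = 0.157) and 0.68 (SE 0.32, adjusted p = 0.215), and were not called. Eif5, Eif4a2 and Eif5a were the other genes that lay lower in CKO without overlap. Eif5a had a log2 change of -0.71 and was called lower in 2 of 17 alternatives, those with the length trend removed. Its adjusted p over the alternatives ran from 0.00158 to 0.593.

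Ovulated CKO 2, which had the highest value of 9 of the 10 genes, all but Eif2s3x, also had the smallest share of counts in the 100 most abundant genes, 25.0% against 29.5 to 35.4% in the other ovulated libraries. It had the lowest sum of granulosa markers too, 495 CPM against 754 to 1248 CPM. Of that list, Foxl2, Amhr2, Inha, Fst and Hsd17b1 were absent from the table of ovulated oocytes, and Ptx3 was at 0 in all 3 WT libraries. Among the 13 oocyte markers, 4 were called higher in ovulated CKO (Figla, Ooep, Zp2 and Zp3) and 0 lower. Over all genes the shares were 6.44% higher and 1.4% lower. Of the 13 markers, 9 had a positive log2 fold change and 4 a negative one. Gdf9 and Mos had lower means in CKO, without a call: Gdf9 fell from 8157 to 4618 CPM and Mos from 943 to 552 CPM. Scaled to library totals alone, all 13 markers together summed to 20154 to 25423 CPM in the WT libraries of this stage. In its CKO libraries they summed to 23208 to 25682 CPM. The means of Gdf9 and Mos are with TMM scaling, and TMM factors averaged 1.12 in ovulated WT and 1.32 in ovulated CKO. These sums and means therefore cannot be set side by side. The part of the differences in markers and in the 100 most abundant genes in the calls was not tested. The plot of calls by libraries used gives the count without each ovulated library.

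**Figure D5:**
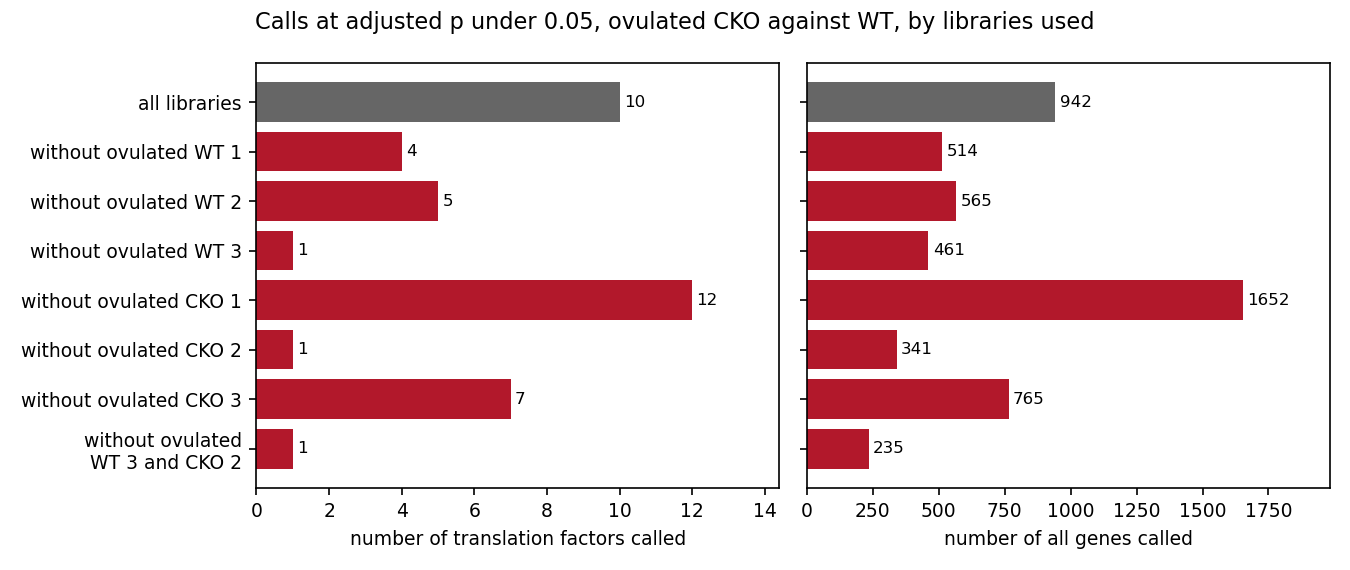
Bars give the number of translation factors (left) and of all genes (right) called between ovulated CKO and WT with all libraries and with the named libraries left out. The count of translation factors is 10 with all libraries and 1 without WT 3, without CKO 2 or without both.

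A genotype-by-stage term asked whether the effect of genotype depended on the stage, and 3 of 60 translation factors passed, all higher. Over all genes 3.26% passed, 3.17% higher. The median term was 0.42 for the translation factors and -0.07 for all genes. Eif2s3x had a genotype effect of 0.16 (SE 0.18) at the GV stage and 2.19 (SE 0.34) after ovulation, each from its own fit, and an interaction of 1.98 (SE 0.39, adjusted p = 0.0106). For Eif3g the effects were 0.07 (SE 0.24) and 1.87 (SE 0.43), and the interaction was 1.74 (SE 0.47, adjusted p = 0.0493). Eif3g was called in 8 of 26 alternatives, Eif2s3x in 22 of 26 and Eif2b5 in 18 of 25. Leaving out any 1 library except GV WT 2, GV CKO 2 or ovulated CKO 1 ended the call of Eif3g, as did the length trend, limma and the replicate block. Eif2b5 had 0, 4 and 0 counts in ovulated WT and 12, 34 and 35 in ovulated CKO, and its fitted interaction of 4.03 (SE 0.90, adjusted p = 0.0212) rests on few WT counts. The test in ovulated oocytes alone gave Eif2b5 an adjusted p of 0.0515. When ovulated WT 3 and ovulated CKO 2 were both left out, none of the 3 was called. The count was 1 without ovulated CKO 2 (0.957% of all genes), 5 without GV WT 2 (3.51%) and 11 without ovulated CKO 1 (7.46%). With DESeq2 it was 10 (6.74%), and with limma on FPKM it was 0.

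The changes from GV to ovulated can be set side by side for the 2 genotypes. For Eef1a1 the log2 fold change was -5.58 (SE 0.52) in WT and -3.82 (SE 0.47) in CKO, and the interaction was 1.76 (SE 0.58, adjusted p = 0.116). For Eif3m it was -4.70 (SE 0.47) and -3.16 (SE 0.43), with an interaction of 1.55 (SE 0.55, adjusted p = 0.155). Eif3l fell in both, at -5.74 (SE 0.50) and -5.33 (SE 0.49). Eif4g2 rose in both, by 2.45 (SE 0.39) and 1.82 (SE 0.38). A missed threshold does not show that these changes were equal.

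Genes that act on or beside the translation factors, or in termination, recycling or mitochondrial translation, were read from 6 lists. These held 75 genes, of which 72 were in the tables. In GV oocytes 0 of 71 tested were called. In ovulated CKO 4 of 66 were higher and 2 lower, against 6.44% and 1.4% of all genes, so the higher count was near the background. Paip2, which displaces the poly(A)-binding protein from mRNA, rose by 2.63 (SE 0.33, adjusted p = 0.000309), and its relative Paip2b by 1.04 (SE 0.26, adjusted p = 0.026). The S6 kinase gene Rps6kb2 rose by 3.33 (SE 0.86, adjusted p = 0.0283) from a mean of 0.157 CPM in WT, and Naa38 by 2.54 (SE 0.45, adjusted p = 0.00331). Naa38, an N-terminal acetyltransferase subunit, was in the accessory list, but a role in translation initiation or elongation is doubtful. Mknk1, a kinase of eIF4E, had a log2 change of -1.07 (SE 0.29, adjusted p = 0.0362), and Ppp1r15a, which directs a phosphatase to eIF2, one of -0.88 (SE 0.26, adjusted p = 0.0458).

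From GV to ovulated in WT, 26 of the 72 rose and 26 fell, against 30.3% and 36.2% of all genes, so these counts were near the background. The counts by list below stand against the same shares. The eIF2 kinases and phosphatase subunits had 4 of 6 higher and 0 lower, among them the kinases Eif2ak3 at 2.38 (SE 0.36, adjusted p = 1.67e-05) and Eif2ak4 at 2.48 (SE 0.39, adjusted p = 2.81e-05). In the list of mTOR and MNK signalling 10 of 16 rose and 2 fell, with Akt1 at 2.46 (SE 0.29, adjusted p = 1.3e-06). Of the mitochondrial translation factors 3 rose and 6 fell, and Tufm, the mitochondrial counterpart of eEF1A, was at -5.21 (SE 0.60, adjusted p = 9.61e-07). Termination and recycling factors had 2 higher and 5 lower of 9. The adaptors of eIF4E and the poly(A) tail had 4 higher and 5 lower of 17, with Paip1 at 1.79 (SE 0.29, adjusted p = 3.62e-05). The accessory proteins had 3 higher and 8 lower of 14, and Dhps, which makes the hypusine of eIF5A, was at -5.32 (SE 0.45, adjusted p = 4.09e-08).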

How the data were processed

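RNA of mouse oocytes was measured by a Smart-seq2 protocol with PCR preamplification, per the labels' protocols. The authors deposited estimated counts per gene, which need not be whole, and FPKM per gene and library, per the file headers, in 1 table for GV and 1 for ovulated oocytes. Per the submitters' processing notes the build was mm10; aligner and counter: not given in the sources used here.

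Counts were rounded. Each stage was tested with edgeR 4.0.16 (R 4.3.3): TMM scaling, filterByExpr, robust quasi-likelihood F test, Benjamini-Hochberg adjustment over all genes tested and a threshold of 0.05. Stage contrasts and the interaction came from 1 fit of all 14 libraries over genes in both tables. "Called" means past that threshold. Library totals were 26575600 to 28847400, so few-count genes limit precision, and counts without molecular identifiers are not independent molecules. Alternatives were DESeq2 1.42.0, limma 3.58.1 on log2(FPKM + 1) and log2(FPKM + 0.1), RLE scaling, no filter or a mean of at least 10 CPM, a lowess trend with transcript length (span 0.3) removed per library, a replicate block, and leaving out libraries. Sites and lengths came from GENCODE M21 transcripts of GRCm38, and gene positions from RefSeq.

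Genes were named by a rule: those called between genotypes or in the interaction, the 2 with the highest FPKM in GV WT of each role, the 6 largest rises and 6 largest falls in WT among those called, and members of close paralog pairs. From each pathway list up to 3 called genes with the smallest p were named. The members and lists were chosen with earlier results of these data known. The tests were tried on simulated data. A first criterion, on the share of changed genes called, was not met for the ovulated comparison and the stage comparison in CKO, and was replaced by criteria on false calls, sign and slope.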

Additional observations from a re-analysis of the deposited data

Results flagged for a closer look

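In 3 genes the genotype effect differed between ovulated and GV oocytes by the interaction test: 1.98 for Eif2s3x, 4.03 for Eif2b5 and 1.74 for Eif3g, on the log2 scale. In 7 of 77 groups of 4 libraries 1 library lay apart from the other 3 by Dixon's criterion, which chance meets in about 5% of groups. In GV CKO these were replicate 1 for Eif4g3 (highest, 37.5 CPM), Eef1d (lowest, 113 CPM) and Eef1a2 (highest, 0.0284 CPM, 1 count), and replicate 2 for Eif2b5 (lowest, 1.94 CPM). In GV WT they were replicate 1 for Eif2b5 (highest, 4.88 CPM), replicate 2 for Eif3m (lowest, 229 CPM) and replicate 3 for Eif4e1b (highest, 21.0 CPM).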

How the results depend on the processing

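In the GV comparison the count stayed at 0 in all 19 alternatives, and both stage comparisons kept their counts within 1.5 times in all 26. The 10 calls in ovulated oocytes stood against 7.84% of all genes, and the shares in brackets below are also of all genes. The count became 5 with limma on log2(FPKM + 1) (4.55%) and 6 on log2(FPKM + 0.1) (6.23%). It was 0 with limma on log2(FPKM + 1) without a filter (0.0788%) and 6 with the length trend removed (6.97%). When single libraries were left out it was 1 to 12: 4 without WT 1 (4.11%), 5 without WT 2 (4.52%) and 1 without WT 3 (3.7%). It was 1 without CKO 2 (2.77%) and 12 without CKO 1 (13.3%). Without WT 3 and CKO 2 together, chosen after seeing the data, 1 remained (1.95%). DESeq2 (13.3%) and edgeR without a filter (8.47%) each gave 12. The 3 interaction calls (3.26%) became 10 with DESeq2 (6.74%), 0 in each limma fit (0.333 to 1.45%) and 0 without those 2 libraries (1.17%). Without single libraries they were 1 to 11: 5 without GV WT 2 (3.51%), 11 without ovulated CKO 1 (7.46%) and 1 without ovulated CKO 2 (0.957%). The share of higher calls among all genes in ovulated oocytes was 82.2%, against 71.3% with DESeq2.

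Whether replicate numbers pair the samples was not settled. Same-numbered WT and CKO libraries correlated at -0.43 to 0.56 in GV and 0.03 to 0.30 in ovulated oocytes. Libraries with different numbers correlated at -0.65 to 0.64 in GV and -0.30 to 0.12 in ovulated oocytes. With a replicate block the ovulated calls were 13, 12 higher and 1 lower. Of all genes 13.6% were then called, with 65.5% of all calls higher. The block and the length trend removed together gave 16, 13 higher and 3 lower. In that fit 17% of all genes were called, and 52.6% of all calls were higher. With the block GV calls were 0 (0.0163% of all genes) and interaction calls 3 (1.98% of all genes). Of these 3, 2 were shared with the fit without the block: Eif3g was lost. Signs turned with the length trend removed, without and with the block: in WT from GV to ovulated, Eif3e to 1.14 and 1.08, Eif4e1b to 0.18 and 0.079, Eef1e1 to 0.19 and 0.16 and Eif1b to 0.028 and 0.23, and Eef1b2 to 0.49 without the block. In CKO, Eif3e turned to 0.52 and 0.49, Eif5a to 0.88 and 0.98, Eef1b2 to 0.71 and 0.64, Eef1e1 to 0.038 and 0.017 and Eif3k to 0.25 and 0.24, and Eif4e1b to 0.74 without the block. The cause was not tested. Genes with few counts, such as Eif2b5 and Eef1akmt1, are limited by depth.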
